A study of Mus musculus with 2 samples.

Results

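The expression of 10 genes of the unfolded protein response and of protein secretion, Hspa5, Hsp90b1, Creld2, Sdf2l1, Manf, Dnajb9, Pdia4, Pdia6, Xbp1 and Derl3, was followed through the cell classes of the mouse spleen. The genes were chosen by symbol, each symbol was found at 1 row of the feature list, and they make up 10 of the 32285 genes counted. Their RNA was measured in droplet single-cell libraries of CD45+ cells, the leukocytes, sorted from spleens. The Glutoborin library came from wild-type (WT) mice that received 10000 iRBCs by intraperitoneal injection, were given Glutoborin on days 2 and 4, and were sampled on day 5. The Vehicle library came from WT mice with the same injection and times, given Vehicle in place of Glutoborin. The labels explain neither Glutoborin nor iRBCs, and they give no strain, age, sex or number of mice per library.

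The endoplasmic reticulum (ER) is where secreted and membrane proteins are folded. When unfolded protein accumulates there, the membrane sensors IRE1, ATF6 and PERK start the unfolded protein response, which raises the output of chaperones, disulphide-forming enzymes and the machinery that removes misfolded protein. IRE1 does this by splicing the messenger of Xbp1, a transcription factor that plasma cells, the antibody-secreting end stage of B cells, need in order to build their large secretory apparatus. Spliced and unspliced Xbp1 cannot be told apart in counts taken from the 3′ ends of messengers.

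The ER stress response element, ERSE, is read as CCAAT, then 9 bases of any kind, then CCACG. It is the site through which ATF6 and XBP1 act on many chaperone genes. Promoters, taken as 250 bases before to 50 bases after the start of the gene in RefSeq annotation of GRCm38.p6, were found for 9 of the 10 genes, Manf being the exception. The element was searched on both strands, and its 19 letters were present in 5 of the 9 promoters, against 39 of all 32851 promoters of the same length (0.119%). ERSE-II (ATTGG, any base, CCACG) and the UPRE (TGACG followed directly by TGG), searched likewise, were in none of the 9 promoters and in 0.0365% and 0.676% of all. No ERSE overlapped another of these motifs. The absence of a match says only that these letters are not in this window. The 250 bases upstream of the start are shown for the 5 genes that hold an ERSE, since the element is shared by chaperones and by the degradation gene Derl3. Sequences are from RefSeq, run 5′ to 3′ on the strand of the gene, and have the ERSE in capitals.
Hspa5, chr2:34771840-34772089, plus strand: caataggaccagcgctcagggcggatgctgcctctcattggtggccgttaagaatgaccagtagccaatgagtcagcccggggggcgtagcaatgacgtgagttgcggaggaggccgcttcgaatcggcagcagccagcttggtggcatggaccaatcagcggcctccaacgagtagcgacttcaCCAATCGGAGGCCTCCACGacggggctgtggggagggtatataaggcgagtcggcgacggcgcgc
Hsp90b1, chr10:86705445-86705694, minus strand: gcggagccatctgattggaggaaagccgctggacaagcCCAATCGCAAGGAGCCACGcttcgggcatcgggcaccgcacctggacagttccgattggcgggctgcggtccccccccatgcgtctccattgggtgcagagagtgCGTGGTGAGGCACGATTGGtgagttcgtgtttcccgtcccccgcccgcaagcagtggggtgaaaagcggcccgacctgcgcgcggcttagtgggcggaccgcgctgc
Creld2, chr15:88819396-88819645, plus strand: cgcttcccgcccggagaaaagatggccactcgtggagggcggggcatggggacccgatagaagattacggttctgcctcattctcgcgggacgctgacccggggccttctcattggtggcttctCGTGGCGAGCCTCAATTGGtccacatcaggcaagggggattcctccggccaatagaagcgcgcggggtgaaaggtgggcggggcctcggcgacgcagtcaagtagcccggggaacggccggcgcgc
Pdia6, chr12:17266339-17266588, plus strand: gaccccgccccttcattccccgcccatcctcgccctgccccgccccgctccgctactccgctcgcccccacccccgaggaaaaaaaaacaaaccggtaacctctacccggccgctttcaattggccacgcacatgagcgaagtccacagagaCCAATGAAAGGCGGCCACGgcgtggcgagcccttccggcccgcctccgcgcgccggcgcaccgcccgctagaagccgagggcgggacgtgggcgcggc
Derl3, chr10:75893148-75893397, plus strand: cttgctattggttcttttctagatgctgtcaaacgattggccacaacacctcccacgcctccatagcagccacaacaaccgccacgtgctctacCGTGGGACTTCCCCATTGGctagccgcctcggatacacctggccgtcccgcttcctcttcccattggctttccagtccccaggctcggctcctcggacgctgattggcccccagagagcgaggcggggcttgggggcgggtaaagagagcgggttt

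The Hspa5 element lay 65 to 47 bases before the start and had the orientation CCAAT to CCACG, as did that of Pdia6 at 98 to 80 bases. Hsp90b1 held a pair of elements, 1 at 212 to 194 bases in that orientation and 1 at 107 to 89 bases on the opposite strand. The elements of Creld2 (126 to 108 bases) and Derl3 (156 to 138 bases) were on the opposite strand. Sdf2l1, Dnajb9, Pdia4 and Xbp1 had no match in this window.

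Each group is 1 library, so no test was possible and every interval below is an exact 95% interval that covers counting error only. The Glutoborin and Vehicle libraries held 9646 and 8204 barcodes with 56862506 and 48526451 UMIs (unique molecular identifiers, which count RNA molecules). Filtering left 8906 and 6493 cells, with 64089 and 60214 UMIs of the 10 genes. The share of barcodes removed for a mitochondrial share of 10% or more was 4.07% in Glutoborin and 18.5% in Vehicle. Among all deposited barcodes 24 sequences occurred in both libraries, and 20 among the kept cells. Clusters were formed without the 10 genes among the variable genes and named from marker genes, so each name is a resemblance and not an identity. Ptprc, which encodes CD45, had a UMI in 94.5% of kept Glutoborin cells and 95.9% of kept Vehicle cells. Levels are given as CPM, that is, a gene's UMIs scaled to a class total of 1000000. In such sums, fewer cells with a messenger and less of it per cell cannot be told apart.

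Plasma cells had the highest level of all 10 genes in the Vehicle library and of 9 in the Glutoborin library, among 17 cell classes and B cell subsets. The exception was Hspa5 in Glutoborin, whose highest level of 1113 CPM (878 to 1391) was in 11 gamma-delta T cells, beside 1075 CPM (986 to 1170) in plasma cells. When any cell with 3 detected plasma markers was counted as a plasma cell (88 in Glutoborin and 128 in Vehicle), 7 genes were highest there in Glutoborin and 3 in Vehicle, and the log2 ratio of the sum over B cells was 1.94 and 0.93, against 2.82 and 2.68 for the plasma cluster. Summed over the 10 genes, plasma cells held 8362 CPM (8110 to 8619) in Glutoborin and 8570.1 CPM (8164 to 8991) in Vehicle, against 1186 and 1338 CPM in B cells. The plasma class was small, with 25 cells and 498710 UMIs in Glutoborin and 14 cells and 194864 UMIs in Vehicle. It also held low-count cells with few immunoglobulin UMIs. In Vehicle these were cells of 521, 553, 718, 766 and 894 UMIs, with immunoglobulin at 9.95% or less. In Glutoborin they were cells of 624 and 1015 UMIs, with 1.12% or less. The leading genes of the class were Ighg2c, Jchain, Ighm and Igkc, and immunoglobulin genes took 54.9% and 53.5% of its UMIs. Among the cells gated on Jchain below, Ighg2c was the leading heavy chain in only 1 Glutoborin cell, and Ighm in the others.

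Hspa5, also called BiP, is the Hsp70 chaperone of the ER and holds unassembled antibody heavy chains. It had 1075 CPM in plasma cells and 350.2 CPM in B cells of the Glutoborin library (3.07-fold, 2.81 to 3.35), and 1463 and 443 CPM in Vehicle (3.30-fold, 2.92 to 3.71). Hsp90b1, the ER member of the Hsp90 family, had 2809 CPM in plasma cells and 283 CPM in B cells of Glutoborin, and 2402 and 302 CPM in Vehicle. Its plasma level was therefore 9.94-fold (9.38 to 10.5) and 7.95-fold (7.22 to 8.73) that of B cells. Each of the chaperones was higher in plasma cells of both libraries, with the whole interval above 1.

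Dnajb9, a J-domain partner of Hspa5, was 4.79-fold higher in plasma than in B cells of Glutoborin (164 against 34.3 CPM) and 3.53-fold in Vehicle (154 against 43.6 CPM). Sdf2l1, which works with Hspa5 and its J-domain partners, had 385 and 513 CPM in plasma cells of Glutoborin and Vehicle, 11.1-fold and 14.8-fold the B cell level. Manf, a small ER protein that binds Hspa5 and can be secreted, had 954 and 888 CPM in plasma cells, 6.92-fold and 6.16-fold. The disulphide isomerases Pdia4 and Pdia6 were 4.87-fold and 3.55-fold higher in plasma cells of Glutoborin, and 5.45-fold and 2.85-fold in Vehicle. These genes were thus raised in plasma cells of both libraries, by factors that differed from gene to gene.

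The widest gaps between plasma and B cells were those of Derl3, Creld2 and Xbp1. Derl3, a derlin of the channel through which misfolded protein leaves the ER, had 345 CPM (295 to 401) in plasma cells and 8.03 CPM in B cells of Glutoborin, and 369 CPM (289 to 465) and 6.51 CPM in Vehicle. This was 43.0-fold (34.9 to 52.9) in Glutoborin and 56.8-fold (42.0 to 76.4) in Vehicle. Creld2, an ER-resident protein induced by ER stress, was 20.6-fold and 23.5-fold higher in plasma cells. Xbp1 had 1077 and 1037 CPM in plasma cells, 19.3-fold and 18.4-fold the B cell level. Because immunoglobulin takes so many of a plasma cell's UMIs, CPM understates these gaps relative to the other genes. Over UMIs that are not immunoglobulin, the summed genes were 15.3-fold higher in plasma than in B cells of Glutoborin and 13.5-fold in Vehicle, in place of 7.05-fold and 6.40-fold.

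**Figure D1:**
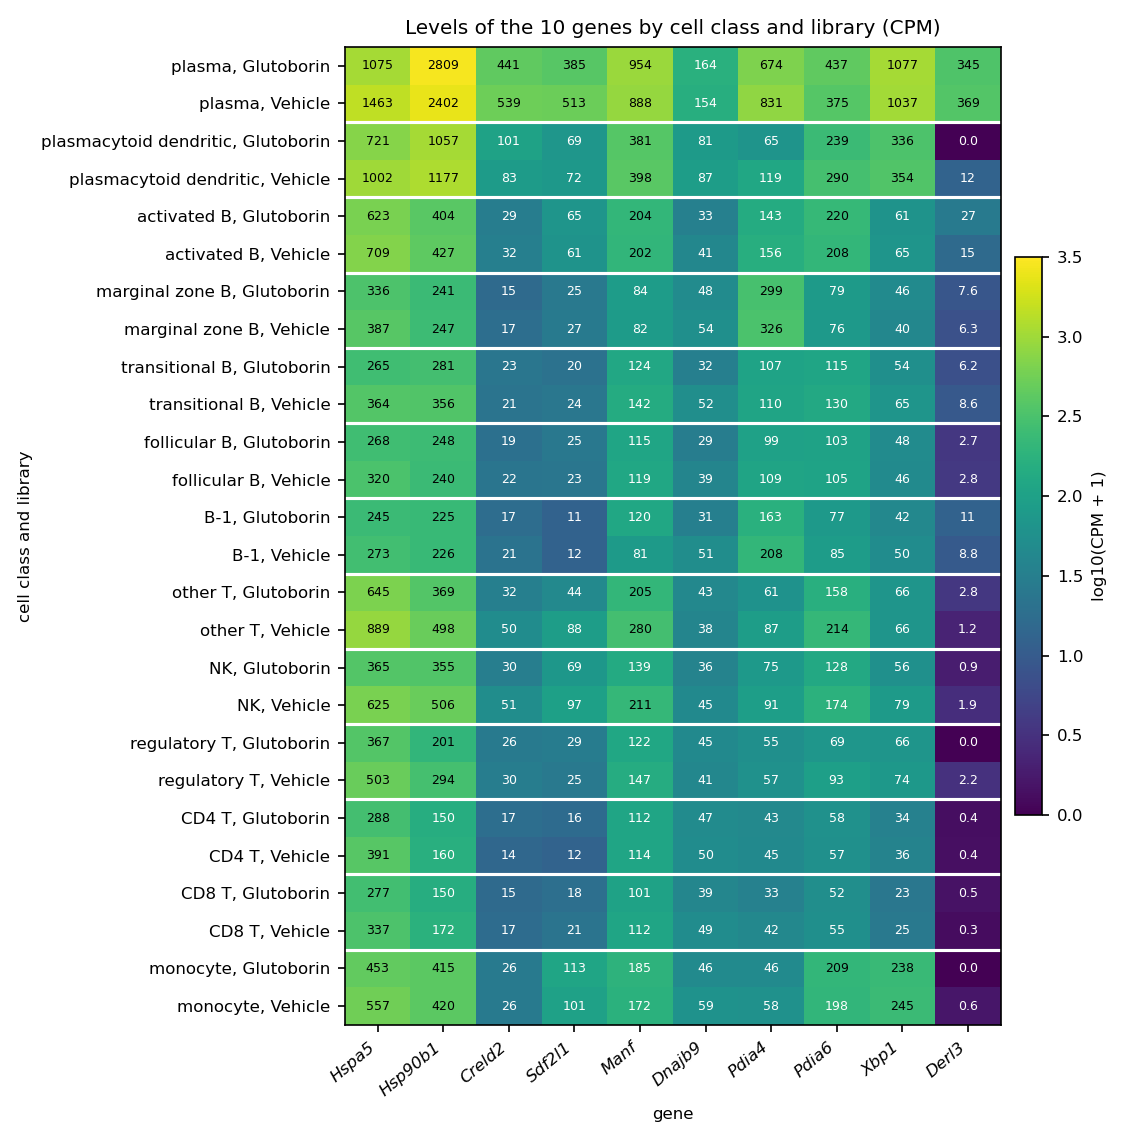
Level of each gene (columns, CPM printed in each tile) in 13 cell classes of the Glutoborin and Vehicle libraries (rows), with colour on a log10(CPM + 1) scale. Plasma cells stand at the top in both libraries, Derl3 reaches 345 and 369 CPM there and at most 26.8 CPM in the other classes, and Pdia4 is raised in marginal zone B cells.

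All 10 genes were at least 1.5-fold higher in plasma than in B cells in each library, where 6.52% of 9963 measured genes were in Glutoborin and 7.76% of 9587 in Vehicle. Their median log2 ratio of plasma over B was 3.05 in Glutoborin and 2.81 in Vehicle, against -1.44 and -1.21 over all genes. Of the other genes of ER folding and quality control, 28 of 35 measured were at least 1.5-fold higher in Glutoborin and 27 of 35 in Vehicle, with medians of 1.63 and 1.43. Genes of ER entry and early secretion, such as translocon and signal peptidase subunits, were at least 1.5-fold higher for 32 of 47 in Glutoborin and 33 of 47 in Vehicle. The PERK arm, headed by Atf4 and Ddit3, had 5 genes higher and 5 lower of 16 in Glutoborin, and 4 higher and 5 lower of 15 in Vehicle. Its median log2 ratio was -0.28 in Glutoborin and -0.23 in Vehicle, against -1.44 and -1.21 over all genes. Of the cytosolic heat shock genes, 13 of 14 were at least 1.5-fold lower in plasma cells of Glutoborin and 13 of 15 in Vehicle. Their medians were -1.85 and -2.12. That share stands beside 77.2% of all genes lower in Glutoborin and 70.5% in Vehicle.

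Plasma cells were few enough to be read one by one. A gate of at least 5000 Jchain CPM and 10 Jchain UMIs, set after the values were seen, took 24 cells in Glutoborin and 9 in Vehicle. It held 31 of the 39 cells of the plasma cluster and 2 cells outside it. The gate left out the plasma cluster cell richest in the 10 genes, a Glutoborin cell of 16730 UMIs. That cell had 30365 CPM of the summed genes, 27.7% immunoglobulin and 837 Jchain CPM, so the ranges of gated cells below do not include it. No other cell with 10 Jchain UMIs exceeded 1811 Jchain CPM, and the lowest gated cell had 6334. The heavy chain with the most UMIs was Ighm in 23 Glutoborin cells and in all 9 Vehicle cells, and Ighg2c in the remaining Glutoborin cell.

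The summed genes spanned 2609 to 26364 CPM (median 5515) over the 24 gated Glutoborin cells and 3057 to 19785 CPM (median 6704) over the 9 Vehicle cells. The libraries thus overlapped over nearly their whole ranges, and single cells within a library differed 10.1-fold in Glutoborin and 6.47-fold in Vehicle. Hsp90b1 spanned 182 to 12440.1 CPM in Glutoborin and 417 to 8762 CPM in Vehicle. Xbp1 was detected in every gated cell, at 199 to 4008 CPM in Glutoborin and 270 to 2038 CPM in Vehicle. Derl3 was at 0 in 3 of the 24 Glutoborin cells and in none of the 9 Vehicle cells.

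The gated cells richest in the 10 genes had small immunoglobulin shares. The 3 highest Glutoborin cells had 26364, 18274 and 15170.1 CPM of the summed genes with immunoglobulin at 20.04%, 35.7% and 14.8% of their UMIs, where the median share was 58.5%. The 2 highest Vehicle cells had 19785 and 16939 CPM with 23.7% and 39.8%, where the median share was 55.7%. Over the 33 cells Pearson's r of the immunoglobulin share with log2 CPM was -0.74, a description in which both quantities share the cell's total as denominator. Over UMIs that are not immunoglobulin, r was -0.35 and the cells spanned 6848 to 32972 CPM in Glutoborin and 6898 to 28135 in Vehicle.

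**Figure D2:**
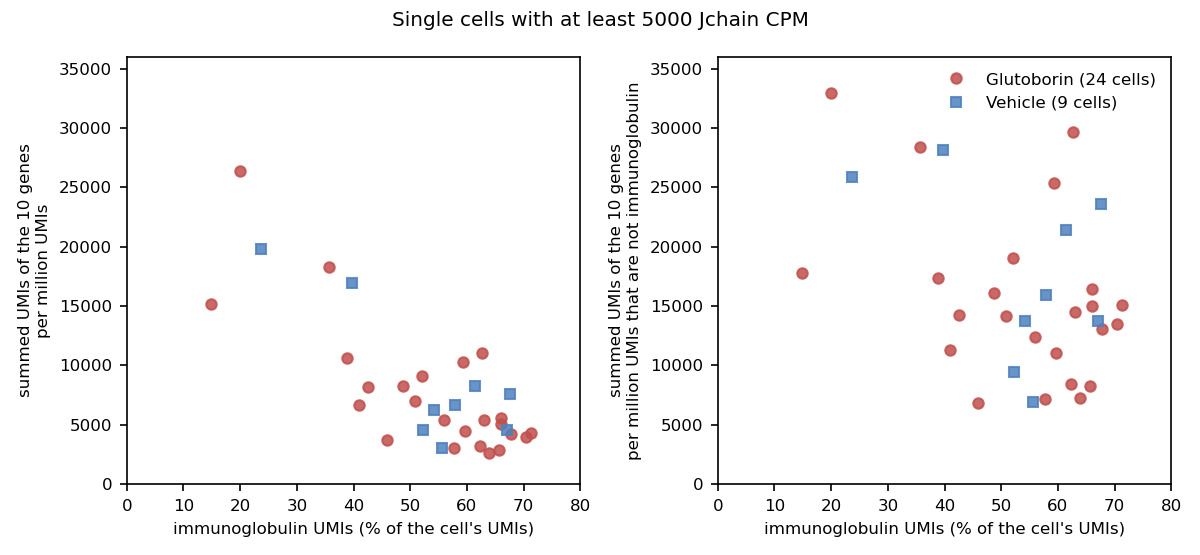
Summed level of the 10 genes in CPM (left) and in CPM over UMIs that are not immunoglobulin (right) against the immunoglobulin share of each cell's UMIs, with 1 point per cell for 24 Glutoborin and 9 Vehicle cells of at least 5000 Jchain CPM. The highest values on the left belong to cells with small shares, such as 26364 CPM at 20.04%, and the libraries overlap in both panels.

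RNA of plasma cells can leak into other droplets, so Derl3 is set beside Jchain here. Derl3 had 10.3 UMIs per 1000 Jchain UMIs (8.78 to 11.9) in plasma cells of Glutoborin and 8.24 (6.44 to 10.4) in Vehicle. In B cells the same ratio was 860.2 (709 to 1042) and 217 (178 to 263), above the plasma value. CD4 T cells held 2 and 2 Derl3 UMIs in 1123 and 861 cells. After each cell was thinned to 2000 UMIs, Derl3 was seen in 0.869% of 5065 Glutoborin B cells and 0.863% of 3475 Vehicle B cells (2.62% and 2.80% before thinning). It was seen in none of 1113 and 857 CD4 T cells, which allows up to 0.270% and 0.350% of cells with a UMI. B cells of both libraries therefore had Derl3 above the share in CD4 T cells, whose median cell of 4866 and 5769 UMIs was deeper than the median B cell of 4110 and 4744 UMIs. Jchain in B cells was itself 9.33 CPM in Glutoborin and 30.01 CPM in Vehicle, so the libraries differed in this RNA. The part of leaked RNA in the Derl3 of B cells was not tested.

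Plasmacytoid dendritic cells, which release type I interferon, came next after plasma cells in the summed genes in Vehicle, and in Glutoborin after plasma cells and the 11 gamma-delta T cells. They had 3050.4 CPM (2836 to 3276) in 25 Glutoborin cells and 3594 CPM (3363 to 3836) in 24 Vehicle cells. Apart from the 11 and 8 gamma-delta T cells, every other named class had at most 2211 CPM. Xbp1 in these dendritic cells was 336 CPM in Glutoborin and 354 CPM in Vehicle, and Hsp90b1 was 1057 and 1177 CPM. Creld2 was 101 and 83.5 CPM, above every class but plasma and, in Glutoborin, gamma-delta T cells. Derl3 had 0 UMIs in Glutoborin and 3 in Vehicle.

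Among B cells, activated B cells, in clusters led by Il4i1, Cd83 and Egr3 or by Egr1 and Egr3, had the highest summed level. It was 1809 CPM (1765 to 1854) in 549 Glutoborin cells and 1916 CPM (1872 to 1961) in 477 Vehicle cells. Follicular B cells, which are resting and recirculate, had 956 CPM (934 to 979) and 1025 CPM (995 to 1056) in 1643 and 828 cells. The ratio of activated over follicular cells was 1.89 (1.83 to 1.96) in Glutoborin and 1.87 (1.80 to 1.94) in Vehicle. At least 1.5-fold higher in activated cells were 7 of the 10 genes in Glutoborin, where 15.1% of all genes were, and 6 in Vehicle, where 16.5% were. None was at least 1.5-fold lower, beside 21.0% and 23.0% of all genes.

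Hspa5 was 623 CPM in activated and 268 CPM in follicular cells of Glutoborin (2.32-fold, 2.18 to 2.47), and 709 and 320.0 CPM in Vehicle (2.21-fold, 2.07 to 2.36). Sdf2l1 was 2.65-fold higher in activated cells of Glutoborin (64.8 against 24.5 CPM) and 2.69-fold in Vehicle (60.9 against 22.6 CPM). Pdia6 was 2.13-fold and 1.99-fold higher, and Manf 1.77-fold and 1.70-fold. Derl3 had the largest ratio, 9.96-fold (6.11 to 17.0) in Glutoborin and 5.46-fold (2.90 to 11.2) in Vehicle, on 20 and 12 UMIs in follicular cells. A large part of the Derl3 UMIs of activated cells lay in few cells of each library, as given below. Xbp1 differed less, at 1.27-fold (1.07 to 1.504) and 1.43-fold (1.18 to 1.73), and Dnajb9 at 1.13-fold and 1.05-fold had intervals that include 1. Of the cytosolic heat shock genes, 9 of 14 in Glutoborin and 10 of 14 in Vehicle were also at least 1.5-fold higher in activated cells. Over all genes the shares were 15.1% and 16.5%.

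Marginal zone B cells, the innate-like B cells at the border of the white pulp, had a pattern that B-1 cells, another B subset, shared in part. Pdia4 was 299 CPM (281 to 317) there and 98.6 CPM (91.6 to 106) in follicular cells of Glutoborin, and 326 CPM (304 to 349) and 109 CPM (99.6 to 119.7) in Vehicle. The ratio was 3.03 (2.75 to 3.33) in Glutoborin and 2.98 (2.66 to 3.35) in Vehicle. Thinned to 2000 UMIs, 42.3% of 442 Glutoborin and 43.0% of 291 Vehicle marginal zone cells had a Pdia4 UMI, against 15.6% and 18.8% of follicular cells. Pdia6, the other disulphide isomerase, went the opposite way, at 0.764-fold (0.663 to 0.879) and 0.727-fold (0.611 to 0.863) of the follicular level. Manf was also lower, at 0.733-fold and 0.692-fold, and Dnajb9 was higher, at 1.64-fold (1.33 to 2.02) and 1.39-fold (1.10 to 1.76). Within the B subsets Dnajb9 and Pdia4 were thus highest in marginal zone cells of both libraries, and 7 of the other 8 genes in Glutoborin and 8 of 8 in Vehicle were highest in activated cells. Xbp1 in Glutoborin was highest in B cells that no subset marker named, at 68.1 CPM.

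**Figure D3:**
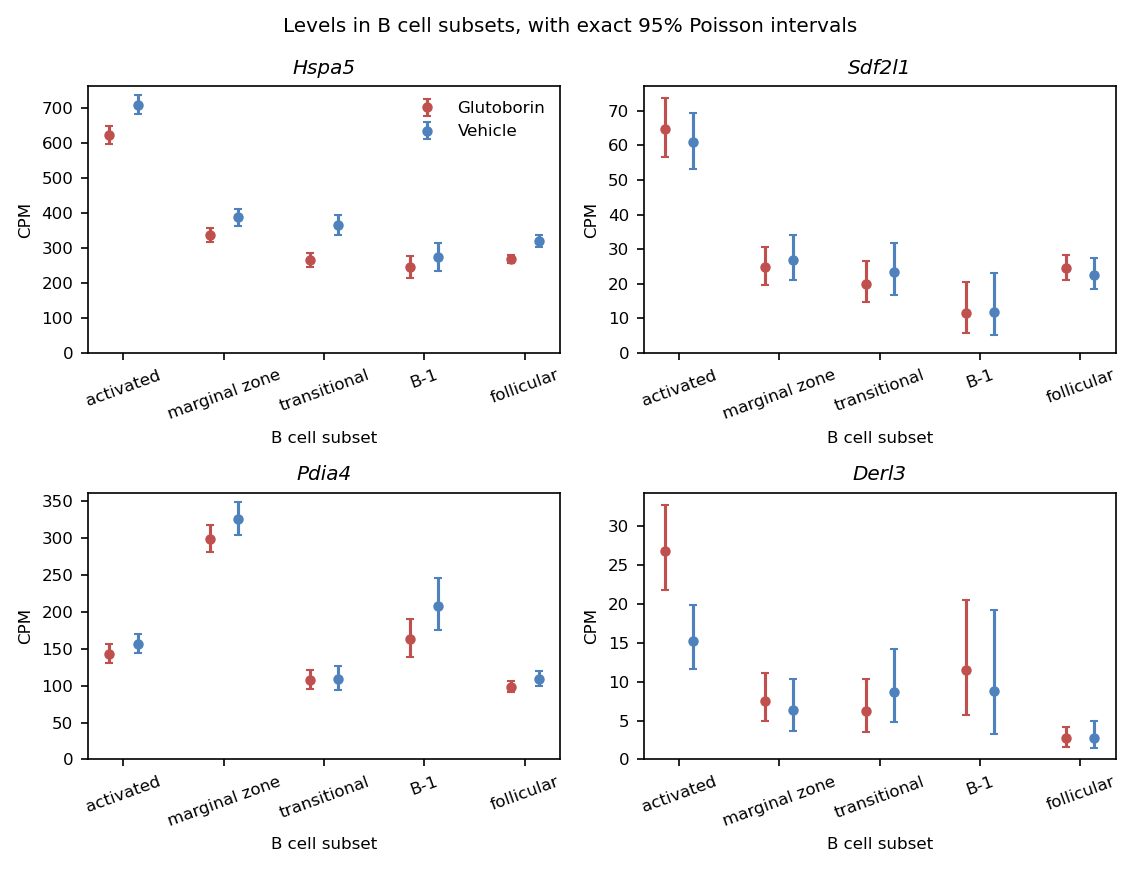
Levels of Hspa5, Sdf2l1, Pdia4 and Derl3 (CPM) in 5 B cell subsets of the Glutoborin and Vehicle libraries, with exact 95% Poisson intervals. Hspa5, Sdf2l1 and Derl3 are highest in activated B cells and Pdia4 in marginal zone B cells, in both libraries.

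T cells had lower levels. The summed genes were 765 CPM (742 to 788) in 1123 CD4 T cells of Glutoborin and 879 CPM (853 to 905) in 861 of Vehicle, and 709 and 830.3 CPM in 1109 and 774 CD8 T cells. Regulatory T cells, which restrain other T cells, had 980 CPM (915 to 1047) and 1267 CPM (1195 to 1342) in 159 and 134 cells. A cluster of T cells led by Cxcr6, Ckb and Id2, with 105 and 82 cells, had 1625 CPM (1533 to 1720) and 2211 CPM (2110 to 2316). Its Hspa5 level was 645 CPM in Glutoborin and 889 CPM in Vehicle, 2.24-fold (2.02 to 2.49) and 2.27-fold (2.08 to 2.48) that of CD4 T cells. At least 1.5-fold higher there than in CD4 T cells were 7 of 9 measured genes in Glutoborin, beside 16.2% of all genes, and 8 of 9 in Vehicle, beside 18.9%. None was at least 1.5-fold lower, beside 12.6% and 14.5%. NK cells, the cytotoxic innate lymphocytes, had 1254 CPM (1208 to 1302) in 322 Glutoborin cells and 1882 CPM (1825 to 1941) in 234 Vehicle cells.

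The Glutoborin library was next set against the Vehicle library within each class, which asks whether the compound went with another level of these genes in infected mice. The summed genes were lower in Glutoborin, with the whole interval below 0, in 14 of 18 classes and B subsets, and higher in 1, gamma-delta T cells. That count takes all B cells as a class beside their subsets, and every class comes from the same pair of libraries. In plasma cells the log2 ratio of Glutoborin over Vehicle was -0.04 (-0.12 to 0.05), and in all B cells -0.17 (-0.20 to -0.15). It was -0.20 (-0.26 to -0.14) in CD4 T cells, -0.23 (-0.28 to -0.17) in CD8 T cells and -0.37 (-0.50 to -0.24) in regulatory T cells. Among those classes that hold 100 or more cells of either library, NK cells had the largest difference, -0.59 (-0.66 to -0.52).

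Hspa5 was lower in Glutoborin in B, plasma, CD4 T, CD8 T, regulatory T and NK cells and in monocytes, and higher in the few gamma-delta T cells (1113 and 549 CPM, 1.02, 0.41 to 1.65). In B cells it had 350.2 CPM (343 to 358) in Glutoborin and 443 CPM (434 to 453) in Vehicle, a log2 ratio of -0.34 (-0.38 to -0.30). CD4 T cells had 288 and 391 CPM (-0.44, -0.54 to -0.35), CD8 T cells 277 and 337 CPM (-0.29, -0.37 to -0.20), and regulatory T cells 367 and 503 CPM (-0.46, -0.67 to -0.25). Plasma cells had 1075 and 1463 CPM (-0.44, -0.65 to -0.23), a value that became -0.01 as a mean over cells and 0.73 without the 10 richest cells of each library. That removal left only Vehicle plasma cells of at most 894 UMIs. Monocytes had 453 and 557 CPM (-0.30, -0.41 to -0.19). The difference in B cells stood in 11 of 11 B clusters, with log2 ratios of -0.53 to -0.06, and that of T cells in 9 of 9 CD4 and CD8 clusters, with -0.45 to -0.13.

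Of the other genes in B cells, Dnajb9 had a difference of about the size of that of Hspa5. It had 34.3 CPM in Glutoborin and 43.6 CPM in Vehicle, a log2 ratio of -0.34 (-0.48 to -0.21). Hsp90b1 (-0.10), Pdia4 (-0.14) and Pdia6 (-0.10) had intervals below 0, while those of Creld2, Sdf2l1, Manf, Xbp1 and Derl3 included 0. Xbp1 was 55.9 CPM in Glutoborin and 56.4 CPM in Vehicle B cells, a log2 ratio of -0.01 (-0.13 to 0.10). In B cells, none of the 10 genes was at least 1.5-fold lower, where 3.3% of 10628 genes were, and none was at least 1.5-fold higher, where 2.55% were. In CD4 and CD8 T cells none of the 9 measured genes was at least 1.5-fold lower, beside 3.39% and 2.87% of all genes, nor in regulatory T cells any of 8, beside 6.5%. None was at least 1.5-fold higher in these 3 classes, beside 2.61%, 1.71% and 2.75% of all genes. The clusters behind the B class were unequally filled: 1 cluster led by Pxdc1 and Fcer2a held 1258 Glutoborin and 333 Vehicle cells, and 1 led by Pkib and the interferon-induced Serpina3g held 306 and 945. The summed genes were below 0 in all 11 B clusters, from -0.31 to -0.00. Their intervals lay wholly below 0 in the marginal zone (-0.10), transitional (-0.31) and larger activated (-0.08) clusters and in 1 led by Fcmr and Ephx1 (-0.23). In all other B clusters the interval included 0, also in the Pxdc1-led (-0.05) and Pkib-led (-0.00) ones. The part of the unequal filling in the lower sum of all B cells was not tested.

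NK cells had all 9 measured genes lower in Glutoborin, with a median log2 ratio of -0.49 against 0.02 over 7082 genes. Hspa5 had 365 CPM (341 to 391) in Glutoborin and 625 CPM (592 to 659.7) in Vehicle, a log2 ratio of -0.78 (-0.90 to -0.65). Creld2 had 29.9 and 50.8 CPM (-0.76, -1.22 to -0.31), and Manf 139 and 211 CPM (-0.61, -0.82 to -0.40). These 3 of 9 genes were at least 1.5-fold lower, where 6.96% of all genes were, and none was at least 1.5-fold higher, where 6.69% were. Hsp90b1 had 355 and 506 CPM (-0.51, -0.65 to -0.38), Sdf2l1 69.3 and 97.4 CPM (-0.49) and Xbp1 56.3 and 78.7 CPM (-0.48). Pdia6 was at -0.45 (-0.67 to -0.22), and the intervals of Dnajb9 and Pdia4 included 0.

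Depth moved with this difference: the median NK cell had 6417 UMIs in Glutoborin and 8238 in Vehicle. After thinning to 2000 UMIs, 47.2% (41.6 to 52.8%) of 322 Glutoborin NK cells had an Hspa5 UMI, and 65.1% (58.5 to 71.2%) of 229 Vehicle NK cells (81.4% and 90.6% before thinning). For Manf the thinned shares were 20.5% (16.2 to 25.3%) and 35.8% (29.6 to 42.4%). The 10 NK cells with the most Hspa5 UMIs held 15.2% of them in Glutoborin and 15.9% in Vehicle. Without the 10 cells richest in the summed genes in each library, the log2 ratio of Hspa5 was -0.79 (-0.93 to -0.66). The mean mitochondrial share of kept NK cells was 3.04% in Glutoborin and 3.02% in Vehicle.

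Markers of other cell types were also lower in the Glutoborin NK cells. Igkc had 256 and 585 CPM in Glutoborin and Vehicle, Lyz2, a myeloid gene, 35.8 and 73.2 CPM, and Jchain 4.47 and 19.1 CPM, while the T cell gene Cd3e had 22.8 and 15.8 CPM. In CD4 T cells Igkc had 271 and 602 CPM, Lyz2 37.5 and 89.1 CPM and Jchain 5.87 and 28.4 CPM. In B cells Lyz2 had 38.2 and 101 CPM. The part of this RNA from other cells in the lower levels of the 10 genes was not tested.

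**Figure D4:**
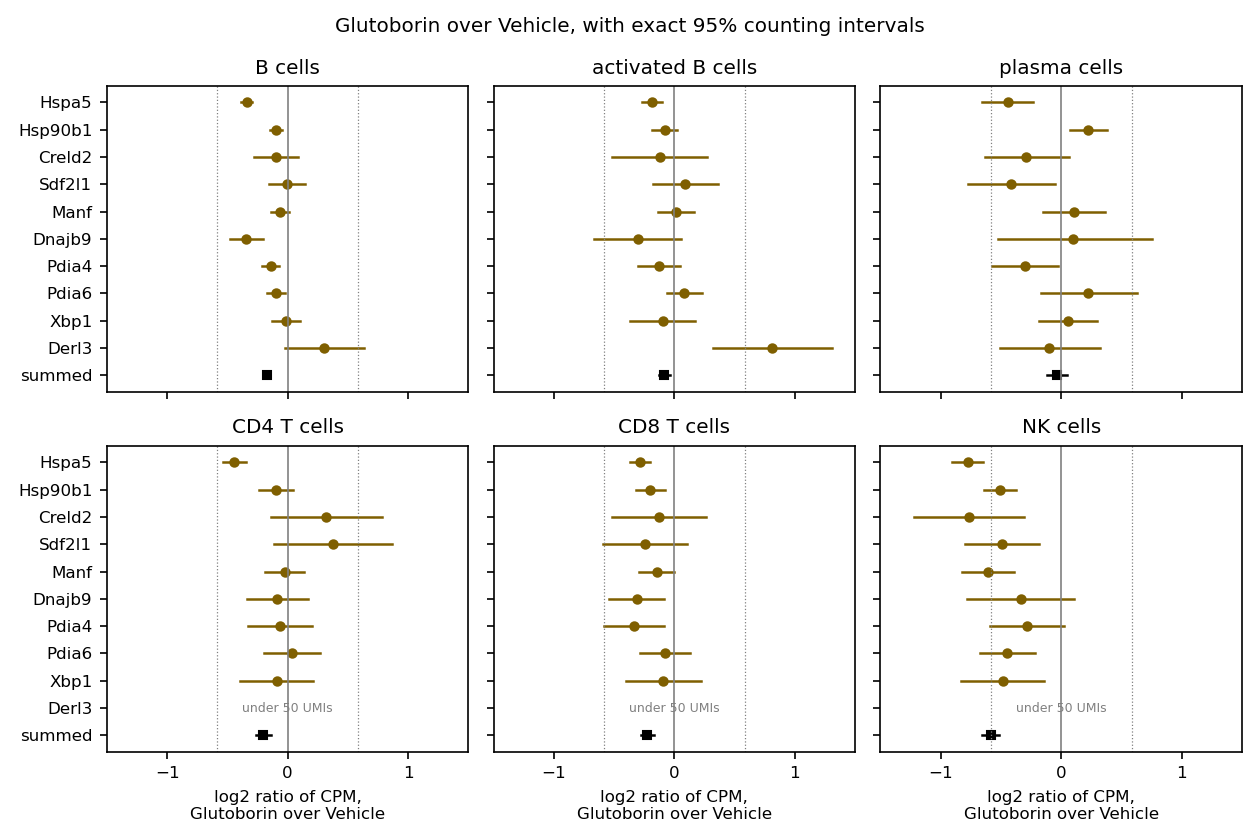
Log2 ratio of CPM, Glutoborin over Vehicle, of each gene and of the 10 summed (squares) in 6 cell classes, with exact 95% counting intervals and dotted lines at 1.5-fold. Hspa5 lies left of 0 in all 6 panels (in activated B cells it moved to 0.03 with doublets kept), all measured genes lie left of 0 in NK cells, and Derl3 lies right of the dotted line in activated B cells.

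In activated B cells Derl3 was the only gene past 1.5-fold, with 26.8 CPM (21.7 to 32.8) in Glutoborin and 15.3 CPM (11.6 to 19.8) in Vehicle, a log2 ratio of 0.81 (0.32 to 1.31). The share of all genes at least 1.5-fold higher there was 3.23%. Its 96 and 57 UMIs were concentrated, with 43.8% and 43.9% of them in 10 cells, and Derl3 was not past 1.5-fold in the mean over cells, after thinning or with doublets kept. The summed genes in activated B cells were at -0.08 (-0.13 to -0.03), and at 0.02 with doublets kept. None was at least 1.5-fold lower there, beside 3.29% of all genes. In transitional B cells, recent arrivals from the bone marrow, Dnajb9 alone of 9 measured genes was at least 1.5-fold lower, with 31.7 and 52.2 CPM (-0.72, -1.18 to -0.27), beside 4.59% of all genes, and none was higher, beside 3.48%. In the T cells led by Cxcr6, Sdf2l1 (44.0 and 88.0 CPM, -0.999) and Creld2 (31.6 and 49.6 CPM, -0.65) were at least 1.5-fold lower of 9, beside 6.88%, and none higher, beside 4.45%. No measured gene passed 1.5-fold in follicular B cells (3.42% of all genes lower and 2.55% higher), marginal zone B cells (3.99% and 3.09%), B cells that no subset marker named (4.42% and 2.84%) or monocytes (6.18% and 3.66%).

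Plasma cells had no gene past 1.5-fold in either direction, beside 8.55% of 760 genes lower and 13.4% higher. Hsp90b1 in plasma cells was the one gene with an interval above 0, at 0.23 (0.07 to 0.38), and Hspa5, Sdf2l1 and Pdia4 had intervals below it. The Hsp90b1 interval leaves out the spread between cells. A single Glutoborin cell of 16730 UMIs had 14644 CPM of Hsp90b1, where the median Glutoborin cell had 1197 CPM. Among cells of the Jchain gate, which left that cell out, the median was 1254 CPM in Glutoborin and 1424 CPM in Vehicle. Plasma values depended on few cells: the log2 ratio of the summed genes was 0.34 as a mean over cells and 1.67 without the 10 richest cells of each library, taken from 25 and 14. The Vehicle cells left by that removal had 521, 718, 766 and 894 UMIs, with at most 2 UMIs of the 10 genes each. Immunoglobulin was at most 5.26% of their UMIs, so the value of 1.67 does not compare plasma cells. The mean over cells gives such small cells the same weight as the others.

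**Figure D5:**
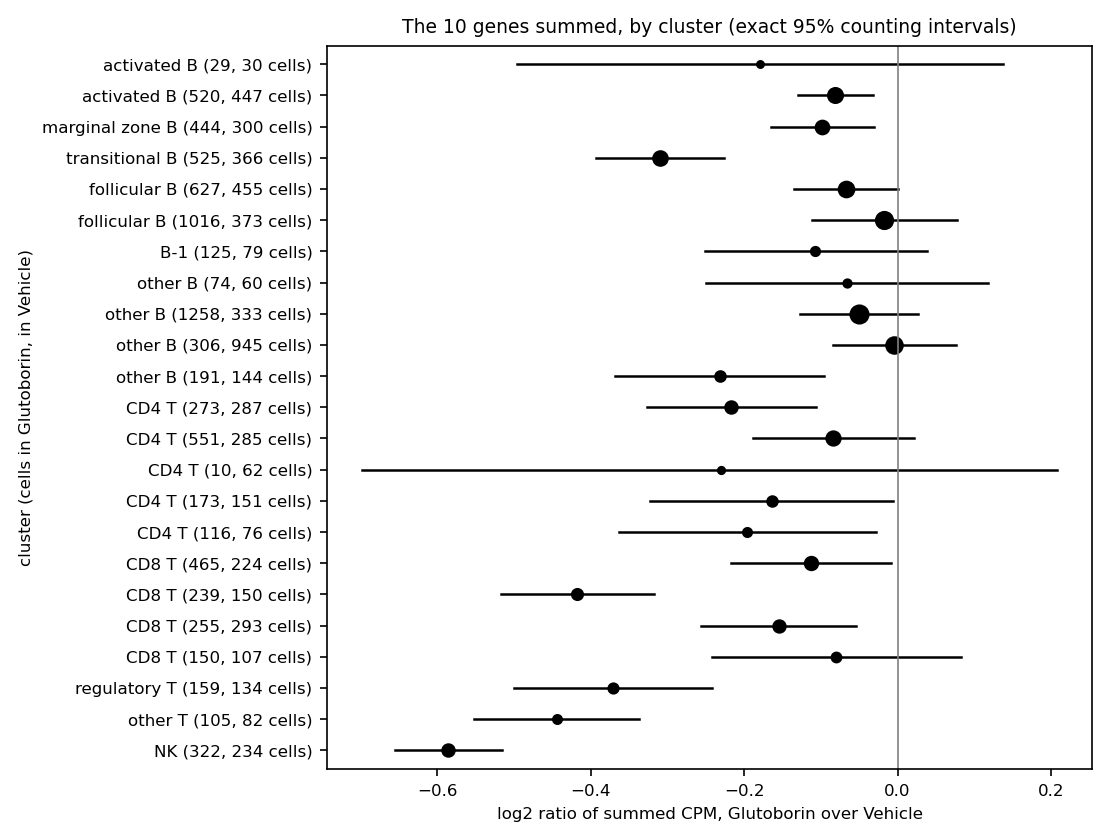
Log2 ratio of the summed CPM, Glutoborin over Vehicle, in the 23 clusters named as B subsets, CD4, CD8, regulatory or Cxcr6-led T cells or NK cells, with exact 95% counting intervals and point area growing with the number of cells. All 23 lie at or below 0, with the NK cluster lowest at -0.59; not drawn are the gamma-delta T cells at 1.15 and 4 unnamed T clusters at -0.37, -0.21, -0.01 and 0.06.

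Related gene lists were compared in the same way. In B cells the median log2 ratio of the 10 genes was -0.10, beside 0.02 for all genes. ER folding and quality control genes had 0.02 and ER entry genes -0.02. None of 35 and none of 47 was past 1.5-fold, beside 3.3% of all genes lower and 2.55% higher. The genes with the largest differences in these lists were Edem3, which trims sugars of misfolded glycoproteins (7.24 CPM in Glutoborin and 9.78 in Vehicle, -0.44), Cnpy2 (0.29) and Sel1l, an ER degradation subunit (0.25), and Tram2 (0.46), Kdelr1 (0.23) and Sec24d (-0.22). Of the sensors only Creb3l2 passed 1.5-fold among 10, with 3.40 and 1.92 CPM (0.83, 0.26 to 1.42).

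The PERK arm had a median log2 ratio of -0.27 in B cells, with 4 of 17 genes at least 1.5-fold lower, beside 3.3% of all genes. These were Atf3, a stress-induced transcription factor (2.89 CPM in Glutoborin and 9.28 in Vehicle, -1.68), Nupr1 (14 and 36 UMIs, -1.71), Ddit4, an inhibitor of mTORC1 signalling (32.2 and 48.3 CPM, -0.59), and Wars, a tRNA synthetase that interferon also induces (37.2 and 71.7 CPM, -0.95). Cytosolic heat shock genes had a median of -0.36, all 15 were below 0, and 3 were at least 1.5-fold lower, beside the same 3.3%. These 3 were Hspa8, a constitutive Hsp70 (948 and 1456 CPM, -0.62), Hsph1 (31.3 and 51.3 CPM, -0.71) and Hspa1b (35 and 74 UMIs, -1.43). Of the other plasma cell genes, Jchain (9.33 and 30.01 CPM, -1.69) and Tent5c (2.69 and 5.75 CPM, -1.10) were lower in Glutoborin B cells. Jchain was lower in classes that are not B cells too, with 5.87 and 28.4 CPM in CD4 T cells, 6.71 and 22.3 CPM in CD8 T cells and 5.86 and 18.6 CPM in monocytes. In NK cells heat shock genes had a median of -0.53, with 5 of 14 at least 1.5-fold lower, and ER folding genes -0.14, with 7 of 31. The PERK arm there had -0.23, with 5 of 14 lower and 1 higher. Of all genes in NK cells, 6.96% were at least 1.5-fold lower and 6.69% higher. The lower heat shock genes and the mitochondrial shares of the deposited barcodes moved with the groups, and their part in the lower Hspa5 was not tested.

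Over 14 classes in both libraries, 28 points in all, the genes whose log2(CPM + 10) most resembled the mean of the 10 were found among 5690 genes. They were Fkbp2 (Pearson's r 0.94), Lman1 (0.93), Ssr4 (0.92), Hyou1 (0.92), Hdlbp (0.92), Slc35b1 (0.90), Sel1l (0.89), Herpud1 (0.89), Calr (0.88) and Clptm1l (0.87). For Hspa5 alone they were Hyou1 (0.93), Hdlbp (0.87) and Calr (0.86), for Xbp1 Tmed10 (0.95), Edem2 (0.91) and Derl1 (0.90), and for Derl3 Eaf2 (0.95), the light chain segment Iglv1 (0.95) and Jchain (0.92). Eaf2 and Jchain were among the markers that named the plasma class, and immunoglobulin genes were allowed as variable genes in forming its cluster. High values of these genes at the plasma points were therefore in part built in. The points of a class share a cell type and those of a library share its depth. Without the plasma points, r of a gene with the mean of the other 9 stayed high for Hsp90b1 (0.95, against 0.96 with them), Pdia6 (0.91, against 0.88) and Hspa5 (0.85, against 0.88). It was 0.28 for Dnajb9 (0.74 with them), 0.23 for Pdia4 (0.63) and 0.26 for Derl3 (0.80), the genes whose likeness to the others rested on plasma cells.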

How the data were processed

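The deposited values are unnormalized UMI counts of 1 Glutoborin and 1 Vehicle library (10x Genomics 3′ v3.1 chemistry, per the labels' protocols). The authors made these counts with Cell Ranger, version 6.1.2 per the file headers and 6.0.1 per the submitters' processing notes, which also name Seurat 4.3.0 and the build mm10. Cells with at least 300 genes, 500 UMIs and under 10% mitochondrial UMIs were kept, and Scrublet doublets (347 in Glutoborin, 195 in Vehicle) were left out. Clustering used scanpy 1.11.5 (2000 variable genes, 30 principal components, 15 neighbours, Leiden resolution 1.5, then 1.0 within B cells, T cells and mixed clusters) with igraph 0.11.9, scikit-learn 1.9.0, scipy 1.17.1 and Python 3.11.15. A class needed 3 of its markers in 20% of its cells.

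UMIs were summed per class and library and given as CPM. Level intervals are exact Poisson, ratio intervals exact conditional Poisson and share intervals Clopper-Pearson, all at 95% and for counting error only. A gene was measured in a comparison with at least 50 UMIs in both groups together, and a call is a ratio of 1.5-fold. With 1 library per group no p-value was computed. The ratio intervals and the 1.5-fold call were tested on simulated Poisson sums of genes in B cells. These sums hold no spread between cells, and the other steps were not tested in this way. All 10 genes are named in each main comparison. From the other lists, the genes past 1.5-fold in B cells are named, or where none is, the 3 with the largest ratio. The genes and lists were chosen with earlier results of these data known.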

Additional observations from a re-analysis of the deposited data

Results flagged for a closer look

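Gamma-delta T cells ran against the other classes. The summed genes had 4046 CPM on 280 UMIs of 11 Glutoborin cells and 1829 CPM on 110 UMIs of 8 Vehicle cells. The log2 ratio was 1.15 (0.82 to 1.48), where 14 classes and B subsets, all B cells counted beside their subsets, had intervals wholly below 0. The difference between classes was not tested.

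A pair of clusters outside the comparisons also had higher sums in Glutoborin. An unnamed cluster with Lyz2, Fn1 and Car1 but also the immunoglobulin genes Igkv12-46, Ighm and Igkc among its 10 leading genes held 30 and 4 cells, with 3425 CPM on 328 UMIs in Glutoborin and 1067 CPM on 3 UMIs in Vehicle (log2 ratio 1.68, 0.12 to 3.97). Its Glutoborin cells had 439 CPM of Xbp1 and 188 CPM of Derl3, and its Vehicle cells had no UMI of either. Of the 328 UMIs in Glutoborin, 272 came from 1 cell of 40848 UMIs with 832 CPM of Xbp1 and 441 CPM of Derl3. That cell passed the Jchain gate, and the whole cluster held 95770 UMIs in Glutoborin. The higher sum of this cluster thus rested mostly on 1 cell. Cycling cells led by Car1, Mt2 and Mki67 held 45 and 27 cells, with 2022 and 1554 CPM (0.38, 0.26 to 0.50).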

How the results depend on the processing

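No paired analysis was possible because each group is 1 library. Of the values that answer a comparison, 169 stayed within their limits and 20 moved. The summed genes in plasma cells, whose interval included 0, kept their sign under 5 of 10 alternatives. Over 9 alternatives each, the log2 ratio of the summed genes, Glutoborin over Vehicle, stayed between -0.19 and -0.16 in B cells, -0.21 and -0.14 in CD4 T cells, -0.24 and -0.18 in CD8 T cells and -0.61 and -0.57 in NK cells, where 2 to 4 genes were at least 1.5-fold lower. In regulatory T cells it was -0.20 at Leiden resolution 0.8.

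In plasma cells this ratio was -0.12 when centred on the class, 0.34 as a mean over cells, 1.67 without the 10 richest cells, 0.12 at resolution 0.8, 0.11 after thinning and -0.13 with the Jchain gate, which was chosen after seeing the data. Plasma genes at least 1.5-fold higher numbered 4 as a mean over cells and 5 without the richest cells, and those lower numbered 2 without the richest cells and 1 after thinning. With no filter on UMIs, 1 gene was higher in CD8 T cells and 1 was lower in regulatory T cells. Hspa5 in plasma cells was -0.01 as a mean over cells and -0.68 after thinning, and turned to 0.73 without the richest cells. Without the richest cells, the plasma class of Vehicle held only cells of 521 to 894 UMIs. With doublets kept, activated B cells turned to 0.0300 for Hspa5 and 0.0169 for the sum. The causes were not tested.

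The log2 ratio of plasma over B cells in Glutoborin was 1.94 when plasma cells were any cells with 3 markers (88 and 128 cells), 3.94 over UMIs that are not immunoglobulin, 2.89 with the stress genes kept and 2.75 with the Jchain gate. In Vehicle the first of these settings gave 0.93, with 3 genes highest in plasma cells, and the second 3.76. The small plasma class limits what its ratios can show.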
